A study of Mus musculus with 16 samples.

Results

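The effect of a high-fat diet (HFD) on the liver of fasted mice was measured by RNA-seq of polyadenylated RNA. The 4 HFD fast libraries were compared with the 4 CD fast libraries (CD, control diet), which are 8 of the 16 liver libraries of the series and were chosen by their diet and feeding state labels. Every mouse was a male of the strain that the labels spell C56B6/J, with no transgene in the labels, and had received its diet for 16 weeks, with 60% of kcal from fat in the HFD. Fasted mice were deprived of food for 16 h before the liver was taken, and the other 8 libraries (4 CD fed, 4 HFD fed) came from livers of mice with free access to food. The labels number 4 liver samples in each group without saying that each came from a separate mouse, so p-values measure the spread between these samples. The comparison asks which liver transcripts differ with diet after food has been withdrawn.

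During a fast the liver shifts from storing nutrients to releasing them. Low insulin and high glucagon and glucocorticoids switch on the genes of gluconeogenesis and amino acid breakdown through the transcription factors FOXO1 and CREB, fatty acids released from adipose tissue are oxidised or turned into ketone bodies under PPARα, and lipid synthesis driven by SREBP1c is switched off. Prolonged high-fat feeding in mice is known to cause obesity, hyperinsulinaemia, steatosis and insulin resistance.

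The 8 fasted libraries held 41364448 to 53982285 counts. Levels are given as CPM (counts scaled to a common library total), with scaling factors from the trimmed mean of M-values (TMM) of 0.9287 to 0.9754 in CD fast and 1.005 to 1.132 in HFD fast. The first principal component of the 500 most variable genes carried 42.2% of the variance and separated the diets, with values from -20.2 to -11.2 in CD fast and from 5.87 to 27.2 in HFD fast. Library HFD fast 4 lay apart from the other three of its group on the second component (-21.4, against 5.951 to 14.98) and CD fast 2 had the lowest value of its own group (-12.8). The 10 hepatocyte markers were expressed in all 8 libraries at a summed level of 96268 to 122149 CPM in CD fast and 83281 to 117876 CPM in HFD fast. None of them passed the test in edgeR, where 3 of the 10 had an unadjusted p under 0.05, against 25.9% of all genes tested. With DESeq2, which called 1131 genes lower, 3 of the 10 fell. Albumin (Alb) transcripts were at 68702, 58456, 86004 and 74824 CPM in CD fast and 52371, 83050, 62054 and 66749 CPM in HFD fast, ranges that overlap. Of 15 pancreas markers, 7 (Prss1 and both insulin genes among them) had no count in any fasted library. The 8 adipose markers summed to 169.1 to 1217 CPM in CD fast and 906.7 to 4446 CPM in HFD fast, most of it from Car3, which hepatocytes also express; 4 of them passed the filter on counts and none passed the test. Because whole liver was sampled, fewer cells of a type and less RNA per cell cannot be told apart in any value below.

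Genes were called at a Benjamini-Hochberg adjusted p under 0.05 in edgeR's quasi-likelihood test, fitted over all 16 libraries with 1 coefficient per group; log2 fold changes are HFD fast minus CD fast, given ± SE. Of 15075 genes tested, 1161 (7.70%) were called: 460 (3.05%) were higher and 701 (4.65%) were lower in HFD fast. The changes were mostly modest, with a median absolute log2 fold change of 0.517 among called genes. In all, 245 exceeded 1 on the log2 scale, 154 of them higher and 91 lower. The 4 HFD fast libraries did not overlap with the 4 CD fast libraries at 2110 genes (14.0% of those tested) and at 1008 of the called genes. Of all tested genes, 52.0% had a log2 fold change above 0. A core of 401 genes (2.66%; 125 higher, 276 lower) was called in the fit of all libraries and in each of the 8 fits that left out 1 fasted library. An unadjusted p under 0.05 was reached by 3905 genes (25.9%).

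The number of calls differed with the libraries fitted and with the scaling. When only the 8 fasted libraries were fitted, 90 of 14446 genes were called (0.623%), 88 of which were among the 1161. In that fit 64 of the called genes named below, among them G6pc, Tat and Igfbp1, lost their call, and none reversed. Without HFD fast 4 there were 535 calls, and without HFD fast 3 there were 553. Scaling to the total count moved the median log2 fold change of all genes by 0.159 and gave 2101 calls, 88.1% of them higher, against 39.6% higher with TMM. It called 1851 of 15075 genes higher and 250 lower, to be read beside the list counts under that scaling. Upper quartile scaling gave 51.2% higher. The called genes named below kept their direction under these scalings.

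Genes for key enzymes of glucose production fell, while most genes of the pathway did not pass the test. In fasted livers of HFD mice, transcripts of the rate-limiting enzyme of gluconeogenesis, Pck1 (cytosolic phosphoenolpyruvate carboxykinase, ENSMUSG00000027513, chr2:173153048-173159273), were at 2459, 1848, 1503 and 2300.3 CPM, compared with 3369, 7106, 5316 and 6915 CPM in CD fast livers. All 4 HFD fast libraries lay below the lowest CD fast library, and the log2 fold change was -1.49 ± 0.26 (adjusted p = 0.00608). G6pc (ENSMUSG00000078650, chr11:101367561-101377903), the catalytic subunit of glucose-6-phosphatase, which releases free glucose from the hepatocyte, was at 271, 904, 365 and 607 CPM in CD fast and 224, 175, 166 and 91.05 CPM in HFD fast. The groups again did not overlap (-1.71 ± 0.38, adjusted p = 0.0156). The transcription factor gene Klf15, an activator of amino acid catabolism and gluconeogenesis in the fast, was at 179.6, 252, 182 and 257 CPM in CD fast and 152, 142, 118 and 117 CPM in HFD fast (-0.72 ± 0.16, adjusted p = 0.0172). Of 21 tested genes of gluconeogenesis and its activators, these 3 and Tat (below) fell and none rose (19.05% lower, against 4.65% of all genes tested). The other 17 did not pass, among them Fbp1, Pcx and Foxo1. In all, 20 of 21 were below 0, with Pck2 above it, 7 fell with DESeq2, and the median log2 fold change was -0.25, against 0.0133 over all genes. With total count scaling 8 were above 0 and 13 below, 4 fell and none rose, and the median was -0.087. In the fit of only the fasted libraries 1 of the 21 fell and none rose. Ppargc1a, the coactivator PGC-1α, was at 10.2, 48.5, 14.2 and 27.8 CPM in CD fast and 10.001, 13.1, 7.38 and 11.3 CPM in HFD fast and did not pass the test (adjusted p = 0.0575). The call of Klf15 was lost in 2 of the 16 fits without 1 library (adjusted p up to 0.0559, without HFD fast 4).

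Of 23 tested genes of insulin receptor and IGF signalling, Igfbp1 and Irs2 fell, none rose and 21 did not pass (8.7% lower, against 4.65% of all genes tested; median -0.15). None of the 23 was called without HFD fast 2, without HFD fast 3 or when only the fasted libraries were fitted, and 1 was called without CD fast 2. By limma-voom none was called, and DESeq2 called 4 lower. Total count scaling called 2 higher and 2 lower, with a median of 0.00955. Igfbp1, a secreted binding protein of insulin-like growth factors that insulin represses, was at 39.7, 616, 38.02 and 117 CPM in CD fast and at 18.3, 11.4, 11.1 and 31.9 CPM in HFD fast. The groups did not overlap, but CD fast 2 was far above the rest, and without it the log2 fold change went from -3.48 ± 0.85 to -1.83 and the adjusted p from 0.0236 to 0.0903. Irs2, the insulin receptor substrate that is induced in the fast, was at 13.6, 69.1, 24.4 and 44.2 CPM in CD fast and 10.9, 10.8, 10.1 and 19.2 CPM in HFD fast (-1.57 ± 0.43, adjusted p = 0.038, and 0.12 without CD fast 2); its groups overlapped. Lepr (chr4:101717404-101815352), the leptin receptor gene, which in fasted liver also yields a secreted form, was at 20.5, 99.8, 15.5 and 20.9 CPM in CD fast and 9.18, 3.17, 5.97 and 8.099 CPM in HFD fast. The log2 fold change was -2.56 ± 0.54 (adjusted p = 0.0128). Without the high library, CD fast 2, it was -1.52, and the call held in each fit without 1 library. Klb, which encodes the FGF21 co-receptor β-klotho, was at 41.3, 57.7, 49.5 and 46.3 CPM in CD fast and 26.4, 30.8, 26.04 and 25.6 CPM in HFD fast (-0.84 ± 0.09, adjusted p = 0.000881). Fgf21 itself was at 19.7, 15.9, 14.8 and 11.3 CPM in CD fast and 27.4, 3.99, 31.2 and 21.4 CPM in HFD fast with overlapping groups (adjusted p = 0.662). Ppp1r3g, a glycogen-targeting subunit of protein phosphatase 1 induced by fasting, was at 0.684, 110.3, 5.73 and 35.4 CPM in CD fast and 1.35, 0.544, 1.19 and 2.97 CPM in HFD fast; the groups overlapped and its call (adjusted p = 0.0204) was lost without CD fast 2 (0.064), where the log2 fold change went from -4.63 to -3.19.

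**Figure D1:**
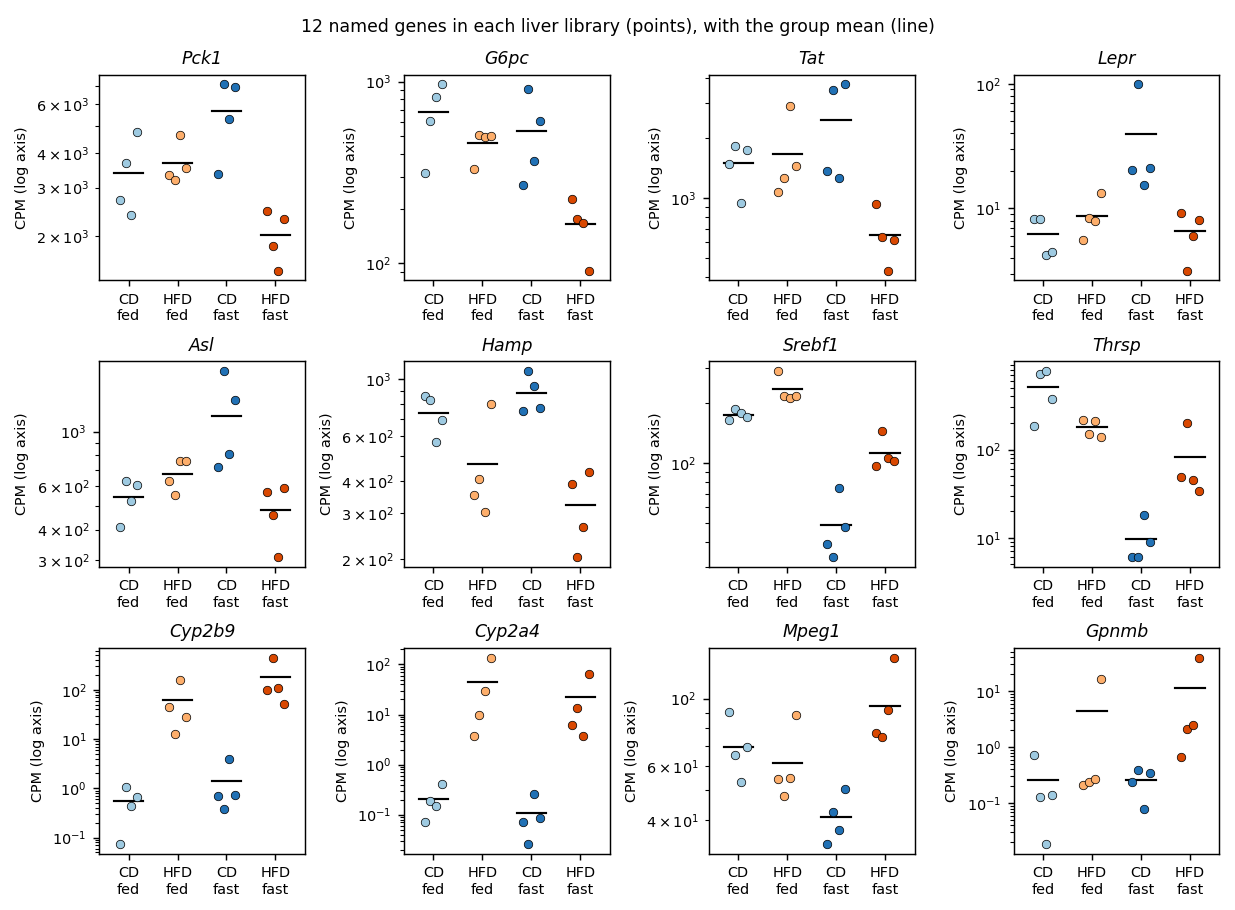
Level in CPM (log axis) of 12 named genes in each of the 16 libraries, with 1 point per library and a line at the group mean; blue marks CD, orange marks HFD, and darker shades mark fasted livers. In the fasted groups all HFD points of Pck1, G6pc, Tat, Lepr, Asl and Hamp lie below the CD points, and all HFD points of Srebf1, Thrsp, Cyp2b9, Cyp2a4, Mpeg1 and Gpnmb lie above them.

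The sequences before the starts of Pck1, G6pc and Igfbp1 are shown because these 3 genes fell together and are textbook targets of CREB (Pck1) and FOXO1 (G6pc and Igfbp1). They are the RefSeq reference of GRCm38.p6, 5′ to 3′ on the strand of the gene, and end before both the RefSeq start and the GENCODE start. Capitals mark the core of a cAMP response element (ACGTCA, searched on both strands) in Pck1, and the core of a forkhead element (CAAAACA, both strands) in Igfbp1 and, on the opposite strand, in G6pc. The runs are chr2:173152928-173153047 (Pck1), chr11:101367466-101367560 (G6pc) and chr11:7197662-7197781 (Igfbp1), each on the plus strand.
Pck1: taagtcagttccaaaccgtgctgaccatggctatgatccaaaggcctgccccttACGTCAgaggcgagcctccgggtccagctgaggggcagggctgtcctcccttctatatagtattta
G6pc: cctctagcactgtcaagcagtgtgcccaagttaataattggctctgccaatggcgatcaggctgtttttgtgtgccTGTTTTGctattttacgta
Igfbp1: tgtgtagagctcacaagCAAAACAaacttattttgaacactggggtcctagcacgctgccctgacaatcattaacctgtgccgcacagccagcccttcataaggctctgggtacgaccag
The ACGTCA match begins at position -91 of Pck1, and the forkhead core at -174 of G6pc and -108 of Igfbp1, counted from the RefSeq start. Of 32851 RefSeq promoters, 6.47% hold ACGTCA and 5.56% hold CAAAACA within the 250 bases before the start. The matches describe the letters in these windows only.

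Some genes of amino acid breakdown and urea synthesis also fell. Tat, tyrosine aminotransferase, a classical glucocorticoid-induced liver enzyme, was at 1369, 3501, 1265 and 3749.6 CPM in CD fast and 932, 641, 433 and 614 CPM in HFD fast. HFD fast libraries all lay below CD fast libraries, with a log2 fold change of -1.92 ± 0.40 (adjusted p = 0.0123). Sdsl, a serine dehydratase-like enzyme, fell from 24.5, 26.2, 18.96 and 23.8 CPM in CD fast to 8.85, 7.09, 7.46 and 11.7 CPM in HFD fast (-1.41 ± 0.22, adjusted p = 0.00374). Homogentisate dioxygenase (Hgd) of tyrosine breakdown had a log2 fold change of -0.73 ± 0.14 (adjusted p = 0.00779). The transsulfuration pair, Cbs and Cth, had -0.53 ± 0.11 and -1.16 ± 0.22 (adjusted p = 0.01 and 0.00825). In all, 11 of 35 tested genes of amino acid catabolism and the methionine cycle fell and none rose (31.4%, against 4.65% of all genes tested), and the list's median log2 fold change was -0.35. The calls of Got1, cytosolic aspartate aminotransferase (-2.01 ± 0.48), Hal, histidine ammonia-lyase (-0.73 ± 0.21), and Agxt, alanine-glyoxylate aminotransferase (-1.09 ± 0.31), were lost without CD fast 2 (adjusted p = 0.0618, 0.0985 and 0.12, against 0.0215, 0.0461 and 0.0431 with it). Without CD fast 2, and likewise without HFD fast 3, 6 genes of the list were called, and with total count scaling 5 fell and 2 rose. In the fit of only the fasted libraries 1 of the 35 fell and none rose.

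In the urea cycle, Asl, argininosuccinate lyase, was at 715, 1767, 808 and 1343 CPM in CD fast and 568, 459, 308 and 587 CPM in HFD fast, without overlap (-1.27 ± 0.27, adjusted p = 0.0125). Slc25a15, the ornithine carrier of the mitochondrial inner membrane, had a log2 fold change of -0.85 ± 0.18 (adjusted p = 0.0138). Of 17 tested genes of the urea cycle and glutamine handling, 3 fell and none rose (17.65% lower, against 4.65% of all genes tested; median -0.37; 7 fell with DESeq2). None of the 17 was called in the fit of only the fasted libraries. Periportal markers, the genes most active in hepatocytes around the portal vein, include several of these enzymes, and their summed level was 14827 to 28245 CPM in CD fast and 8744 to 14835 CPM in HFD fast, ranges that meet at their ends. Of 13 tested, 3 fell and none rose (23.1% lower, against 4.65%), 11 were below 0 and the median was -0.59. When only the fasted libraries were fitted, 1 fell. Of 12 pericentral markers none was called, 10 were above 0 and 2 below, and the median was 0.27. The part of zonation in these values was not tested.

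**Figure D2:**
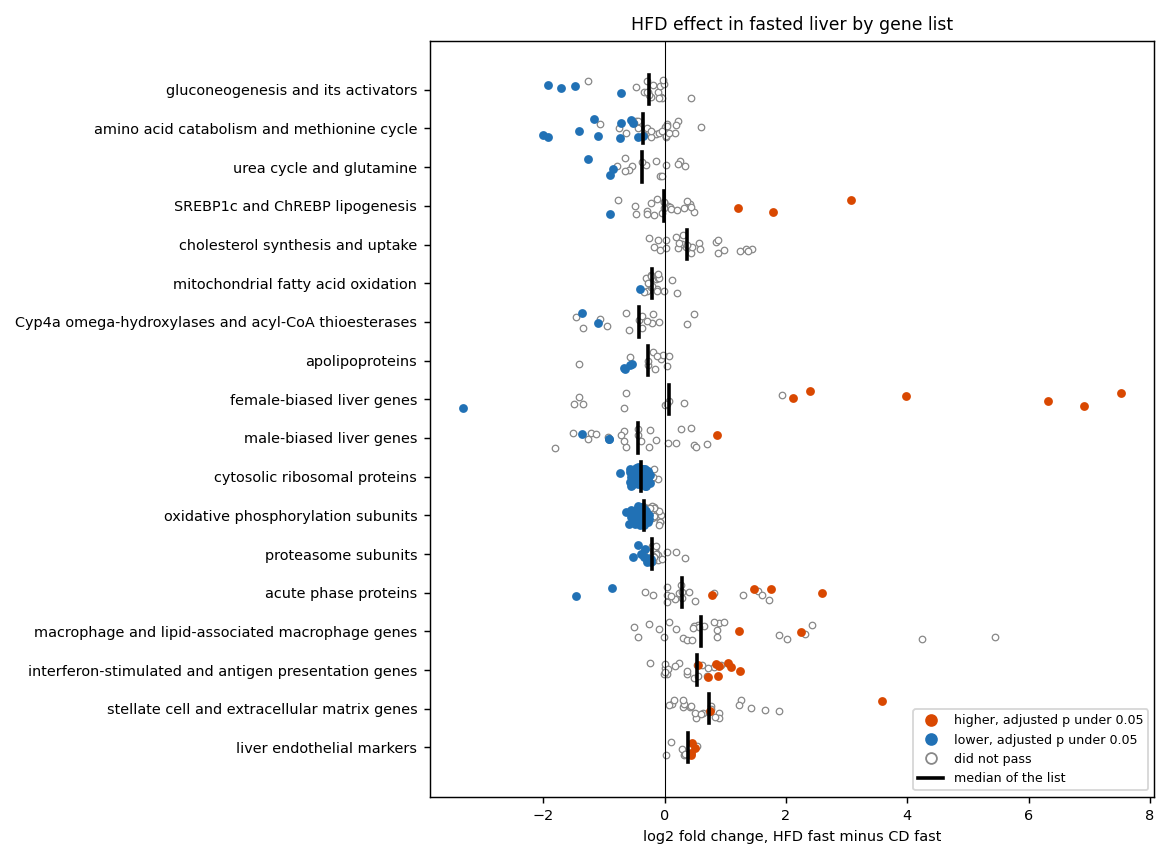
Log2 fold change of each tested gene (HFD fast minus CD fast) in 18 gene lists, with 1 point per gene; filled orange and blue points passed the test higher and lower, open points did not, and the black bar is the list's median. Ribosomal protein and oxidative phosphorylation genes all lie below 0, and the highest points are in the female-biased list. Of that list, Cyp2a4, Cyp2b13 and Hao2 entered the test through HFD libraries, so they had to differ.

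Lipid synthesis genes did not move as a block. Srebf1, which encodes the lipogenic regulator SREBP1, was at 39.2, 33.3, 74.6 and 47.4 CPM in CD fast and 96.5, 145, 105 and 102 CPM in HFD fast. The 4 HFD fast libraries all lay above the CD fast libraries (1.21 ± 0.20, adjusted p = 0.00512). Thrsp (Spot14), a lipogenic protein induced by carbohydrate and thyroid hormone, was at 6.08, 5.99, 17.996 and 8.88 CPM in CD fast and 49.03, 201, 44.97 and 33.7 CPM in HFD fast, which is again without overlap (3.07 ± 0.60, adjusted p = 0.00863, and a log2 fold change of 2.12 without HFD fast 2). Aacs, acetoacetyl-CoA synthetase, was the third gene of the list that rose (1.79 ± 0.53, adjusted p = 0.0499), with overlapping groups and a call lost in 13 of 16 fits (adjusted p up to 0.137, without HFD fast 3). Elovl6, an elongase of long-chain fatty acids, fell from 66.9, 73.04, 66.8 and 67.2 CPM to 39.4, 27.6, 32.9 and 46.4 CPM (-0.90 ± 0.25, adjusted p = 0.0377, and 0.0958 without HFD fast 3). The enzymes of fatty acid synthesis themselves did not pass the test. Fasn was at 111, 86.1, 119.8 and 98.6 CPM in CD fast and 161, 122, 164 and 111 CPM in HFD fast (adjusted p = 0.156), Acly had a log2 fold change of -0.28 ± 0.19 and Acaca a log2 fold change of -0.01 ± 0.12. Scd1, the stearoyl-CoA desaturase, ranged from 466 to 3062 CPM within CD fast and from 348 to 3209 CPM within HFD fast, so a diet effect was not detectable against the spread between libraries (-0.30 ± 0.60). Over the 25 lipogenic genes, 3 rose and 1 fell (12% and 4%, against 3.05% and 4.65% of all genes tested), and the median was -0.00229. These 4 calls became 2 without CD fast 1, 2 or 4, or without HFD fast 2 or 3. When only the fasted libraries were fitted, none of the 25 rose, Srebf1 and Thrsp included, and 1 fell. With total count scaling 5 rose and none fell, 17 of the 25 were above 0 and 8 below, and the median was 0.16.

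Tpi1, triosephosphate isomerase, fell by 0.48 ± 0.09 on the log2 scale (adjusted p = 0.00936). Of 22 tested genes of glycolysis, 2 rose and 4 fell (9.09% and 18.2%, against 3.05% and 4.65% of all genes tested). These 6 calls became 1 without HFD fast 3, 2 without HFD fast 4 or without CD fast 2, and 0 when only the fasted libraries were fitted. With total count scaling the balance turned, as 5 rose and 1 fell. The median was then 0.00777, against -0.15 with TMM.

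No gene of cholesterol synthesis and uptake passed the test, although 21 of 25 had a log2 fold change above 0 and the median was 0.36. None was called by limma-voom or DESeq2 either. With total count scaling 2 of the 25 rose, against 1851 of all 15075 genes tested. An unadjusted p under 0.05 was reached by 6 of the 25, a share near the 25.9% of all genes tested. Sqle, squalene epoxidase, was at 13.2, 9.34, 8.92 and 10.9 CPM in CD fast and 18.3, 14.5, 76.5 and 6.14 CPM in HFD fast (1.45 ± 0.59, adjusted p = 0.134), and Hmgcs1, which makes HMG-CoA for sterols, was at 87.96, 51.9, 79.98 and 56.3 CPM in CD fast and 97.8, 91.99, 264 and 57.04 CPM in HFD fast (adjusted p = 0.156). In both genes HFD fast 3 was far above the other three libraries of its group.

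Of the genes of fatty acid oxidation, which PPARα induces in the fast, most did not pass the test. Among Cyp4a hydroxylases and acyl-CoA thioesterases, 2 of 17 fell and none rose (11.8% lower, against 4.65% of all genes tested), with 15 below 0 and a median of -0.42. None of the 17 fell without CD fast 1, without CD fast 2 or without HFD fast 3, and 1 fell without HFD fast 4; 5 fell with DESeq2. Cyp4a10, a microsomal fatty acid ω-hydroxylase and a sensitive PPARα target, was at 4689, 6835, 4707 and 4487 CPM in CD fast and 3381, 2330.2, 2331 and 1590.4 CPM in HFD fast. The groups did not overlap (-1.10 ± 0.29, adjusted p = 0.0327), and the call was lost in 5 of 16 fits (0.0977 without HFD fast 4). Its neighbour Cyp4a14 was at 9651, 12183, 9865 and 9954 CPM in CD fast and 7818, 3553, 5336 and 3174 CPM in HFD fast, also without overlap, and missed the threshold (adjusted p = 0.0756). Ehhadh, the peroxisomal bifunctional enzyme, was at 4637, 4014, 2572 and 3311 CPM in CD fast and 2465, 809, 1618 and 1370.4 CPM in HFD fast (-1.21 ± 0.30, adjusted p = 0.025, and 0.074 without HFD fast 4). Acox2, the peroxisomal oxidase of branched fatty acids and bile acid precursors, rose by 0.36 ± 0.08 (adjusted p = 0.0173). In the mitochondrial list 1 of 19 genes fell (Etfb, a subunit of the electron transfer flavoprotein, -0.41 ± 0.09, adjusted p = 0.0156, and 0.0512 without HFD fast 4), none rose, and 17 of 19 were below 0 (5.26% lower, against the same 4.65%). With total count scaling 9 of these 19 were above 0 and 10 below, 1 rose and none fell, and the median was -0.059. Cpt1a, the gate of mitochondrial fatty acid entry, had -0.29 ± 0.17 with TMM (adjusted p = 0.298). Among 7 ketogenesis genes none was called by edgeR, 2 fell with DESeq2, and 2 had an unadjusted p under 0.05 in edgeR, against 25.9% of all genes tested.

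Among lipid storage genes Plin4 rose, and Tm6sf2, Dgat1 and 4 apolipoproteins fell. Plin4, a perilipin that coats lipid droplets, rose from 102, 88.95, 96.9 and 104 CPM in CD fast to 166, 206, 208 and 169.7 CPM in HFD fast (0.93 ± 0.20, adjusted p = 0.0144), the only one of 19 droplet and lipolysis genes to pass (5.26%, against 3.05% of all genes tested). Plin2, the main hepatocyte perilipin, was at 1561, 1377, 1230.2 and 1108 CPM in CD fast and 1305, 764, 1424 and 800.0 CPM in HFD fast (adjusted p = 0.382). Cd36, a fatty acid translocase, had higher values in every HFD fast library (163, 268, 248 and 234 CPM) than in CD fast (131, 102, 159.5 and 135 CPM) but did not pass (adjusted p = 0.117). Tm6sf2, which is needed to load lipid onto very low density lipoprotein, fell by 0.86 ± 0.17 (adjusted p = 0.0106). Dgat1, which completes triglyceride synthesis, fell by 0.49 ± 0.11 (adjusted p = 0.0165, and 0.0558 without HFD fast 3). They were 2 of 12 tested genes of triglyceride synthesis (16.7% lower, against 4.65% of all genes tested), and 1 of the 12 fell without HFD fast 3 or without HFD fast 4. Of 15 apolipoproteins, 4 fell and none rose (26.7% lower, against 4.65% of all genes tested): Apoc3, an inhibitor of triglyceride clearance (-0.57 ± 0.12, adjusted p = 0.0109), Apoc4 (-0.54 ± 0.12, adjusted p = 0.0142), Apom, the carrier of sphingosine-1-phosphate (-0.66 ± 0.16, adjusted p = 0.021), and Apoa5, an activator of triglyceride clearance (-0.67 ± 0.18, adjusted p = 0.0309). The calls of Apom and Apoa5 were lost without HFD fast 4 (0.0646) and without CD fast 2 (0.0861), and 2 apolipoproteins fell without CD fast 2, without HFD fast 3, without HFD fast 4 or with total count scaling. None of the 15 was called in the fit of only the fasted libraries. Apob, the structural protein of these particles, was at 8477 ± 1324 and 8738 ± 502 CPM (SD, n = 4 each), a difference smaller than the spread. In bile acid synthesis 1 of 22 genes passed (4.54% lower, near the 4.65% of all genes tested): Cyp8b1, the sterol hydroxylase that sets the share of cholic acid, was at 1219, 1524, 792 and 946 CPM in CD fast and 744, 427, 623 and 353 CPM in HFD fast (-1.06 ± 0.26, adjusted p = 0.0218, and 0.067 without HFD fast 4; the call was also lost without CD fast 1 and without CD fast 2).

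Among cytochrome P450 genes that are expressed far more in female than in male mouse liver, Cyp2b9 rose strongly. This bias follows the sex-specific pattern of growth hormone secretion. Of these genes, Cyp2b9 was above the floor of 3 counts in every CD fast library. Cyp2b9 (chr7:26173411-26210661) had 29, 15, 197 and 34 counts in the CD fast libraries and 4560, 19867, 5301 and 2530 counts in the HFD fast libraries of these male mice. As CPM it rose from 0.684, 0.384, 3.88 and 0.7399 to 98.9, 450.2, 111 and 51.1 (6.92 ± 1.04, adjusted p = 0.00347). The lowest HFD fast library was above the highest CD fast library, although the values within HFD fast themselves spread widely. Cyp2a4 (chr7:26307169-26315088), a steroid hydroxylase, had 3, 1, 13 and 4 counts in CD fast and 285, 597, 179 and 3207 counts in HFD fast (7.53 ± 1.48), with HFD fast 4 the highest. limma-voom did not call Cyp2a4 (adjusted p = 0.206). Cyp2b13, the paralog next to Cyp2b9, had 1, 0, 4 and 2 counts in CD fast and 55, 434, 38 and 73 counts in HFD fast. In CD fast the counts of Cyp2a4 and Cyp2b13 were near the floor of 3 counts per library, so the sizes of their folds are uncertain. Both genes entered the test through HFD libraries, so they had to differ. Their calls by edgeR and their rank are therefore not read as a result. The log2 fold change of Cyp2b9 was 5.88 without HFD fast 2 and 8.18 without CD fast 3, and that of Cyp2a4 was 6.03 without HFD fast 4 and 8.40 without CD fast 3. Of the other P450 genes of the list, Cyp2c69, Cyp2c40 and Cyp17a1 did not pass, with log2 fold changes of -1.41, -0.68 and -0.63.

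The sequences before the starts of both pairs of paralogs are shown because they are nearly identical, and so show how close the members of each pair are. They are RefSeq GRCm38.p6, plus strand, 5′ to 3′, at chr7:26173289-26173408 (Cyp2b9), chr7:26061375-26061494 (Cyp2b13), chr7:26307049-26307158 (Cyp2a4) and chr7:26835195-26835304 (Cyp2a5). Capitals mark the bases that differ within a pair.
Cyp2b9: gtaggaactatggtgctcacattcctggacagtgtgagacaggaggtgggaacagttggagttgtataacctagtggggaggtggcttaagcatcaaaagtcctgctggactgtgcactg
Cyp2b13: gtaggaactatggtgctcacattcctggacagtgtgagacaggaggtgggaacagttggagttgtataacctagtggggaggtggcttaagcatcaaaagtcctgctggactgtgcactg
Cyp2a4: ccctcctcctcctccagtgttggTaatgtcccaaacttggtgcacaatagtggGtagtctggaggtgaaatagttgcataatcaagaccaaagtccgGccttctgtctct
Cyp2a5: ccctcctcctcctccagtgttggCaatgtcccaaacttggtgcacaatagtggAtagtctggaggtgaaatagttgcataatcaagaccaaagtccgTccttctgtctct
Cyp2b9 and Cyp2b13 share all 120 printed bases, and Cyp2a4 and Cyp2a5 share 107 of 110. Cyp2a5, the coumarin hydroxylase, which male liver expresses as well, was at 72.7, 117, 558 and 336 CPM in CD fast and 404, 1133, 376 and 518 CPM in HFD fast and did not pass (adjusted p = 0.196). Reads that match both members of a pair could be split or dropped by the counting step, so the counts of each member are uncertain.

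Other called genes of the female-biased list moved in both directions. Slc22a26, an organic anion transporter, was at 0.566, 0.537, 1.24 and 0.609 CPM in CD fast and 3.86, 3.54, 3.25 and 2.34 CPM in HFD fast (adjusted p = 0.00683). Slc22a27, a related transporter whose reads may be confused with those of Slc22a26, was at 0.825, 0.333, 1.28 and 1.001 CPM in CD fast and 2.99, 5.598, 5.77 and 4.02 CPM in HFD fast (adjusted p = 0.00883). Hao2, a peroxisomal hydroxyacid oxidase, had 0, 3, 6 and 2 counts in CD fast and 25, 126, 20 and 12 in HFD fast (adjusted p = 0.0299, and 0.0871 without HFD fast 2). In contrast Cux2, the transcriptional regulator that is itself female-specific in liver, fell (-3.33 ± 0.71, adjusted p = 0.0128, and -2.70 without CD fast 4) with overlapping groups, from 0.354, 6.703, 2.402 and 9.81 to 0.586, 0.544, 0.629 and 0.162 CPM. In all, 6 female-biased genes rose, 1 fell and 10 did not pass, while the other 8 of the 25 on the list had too few counts to be tested. Of the 6, Cyp2a4, Cyp2b13 and Hao2 had few counts in CD livers and entered the test through HFD libraries, so they had to differ. Their calls are not read as a result, and nothing is read from the share of the list that rose. Among 27 tested male-biased genes, 1 rose (Hsd3b2, 0.87 ± 0.25, adjusted p = 0.0469, and 0.123 without HFD fast 2) and 3 fell: Ugt2b38, a glucuronosyltransferase (-0.92 ± 0.17, adjusted p = 0.00724), Gstp1, a glutathione transferase (-0.91 ± 0.20, adjusted p = 0.0154), and Cyp4a12b, an arachidonate hydroxylase driven by androgen and growth hormone (-1.37 ± 0.34, adjusted p = 0.0251). These are 3.7% higher and 11.1% lower, against the same 3.05% and 4.65%, and the median of the male-biased list was -0.44. The 4 calls became 2 without CD fast 1, without HFD fast 3 or without HFD fast 4. The calls of Gstp1 and Cyp4a12b were lost without HFD fast 4 (0.0512) and without HFD fast 3 (0.0741).

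Ribosomal protein genes fell together by a small amount. Of 78 tested genes of the cytosolic ribosome, 71 fell and none rose (91.0%, against 4.65% of all genes tested); all 78 had a log2 fold change below 0, with a median of -0.38. The summed level was 12591 to 14050 CPM in CD fast and 9843 to 10504 CPM in HFD fast, so the groups did not overlap. As examples, Rpl38 of the large subunit was at 77.9, 74.2, 67.8 and 64.8 CPM in CD fast and 47.7, 48.2, 48.1 and 49.4 CPM in HFD fast (-0.56 ± 0.07, adjusted p = 0.00152). Rps28 of the small subunit was at 72.2, 94.9, 79.5 and 79.4 CPM in CD fast and 58.3, 53.5, 56.8 and 51.6 CPM in HFD fast (-0.57 ± 0.09, adjusted p = 0.00475). The values of Rpl23 and Rpl13a were -0.50 ± 0.07 and -0.54 ± 0.07 (adjusted p = 0.00219 and 0.00219).

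Nuclear-encoded subunits of the respiratory chain and ATP synthase showed the same pattern. Of 69 tested, 47 fell and none rose (68.1%), all were below 0, and the median was -0.34. Uqcr10, a subunit of complex III, was at 115, 115, 100.2 and 101 CPM in CD fast and 67.97, 79.1, 64.97 and 64.97 CPM in HFD fast (-0.63 ± 0.08, adjusted p = 0.00132). Cox7a2 of complex IV (-0.55 ± 0.08, adjusted p = 0.00219), Uqcrh of complex III (-0.55 ± 0.07, adjusted p = 0.00181) and Ndufa5 of complex I (-0.55 ± 0.09, adjusted p = 0.00502) also had groups that did not overlap. The mitochondrially encoded mt-Co1 of complex IV was at 15938, 12884, 20665 and 19695 CPM in CD fast and 14246, 16265, 14766 and 14315 CPM in HFD fast and did not pass (adjusted p = 0.433). Among 34 proteasome subunits, which degrade ubiquitinated proteins, 10 fell and none rose (29.4% lower, against 4.65% of all genes tested), with a median of -0.20, for example Psma5 (-0.44 ± 0.08, adjusted p = 0.00833). Of the 34, 2 fell without HFD fast 3 or without HFD fast 4, 4 without CD fast 1 or without CD fast 2, 6 without CD fast 3, 2 with total count scaling, 17 with DESeq2, and none when only the fasted libraries were fitted.

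**Figure D3:**
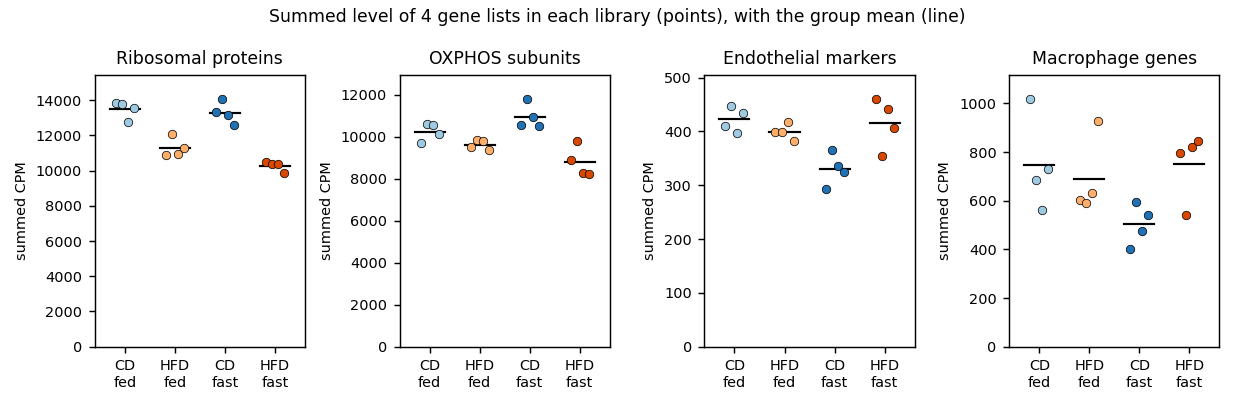
Summed CPM of the ribosomal protein, oxidative phosphorylation (OXPHOS), endothelial and macrophage lists in each library, with 1 point per library and a line at the group mean; the axes start at 0. Ribosomal protein levels of the 4 HFD fast libraries (9843 to 10504 CPM) lie below all 4 CD fast libraries, and so do the OXPHOS levels (8242 to 9817 against 10516 to 11785 CPM).

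Transcript length and abundance moved with these values. These transcripts are short and abundant, and over all genes the median log2 fold change went from -0.109 in the shortest decile of exonic length to 0.0788 in the longest, and from 0.197 in the decile with the fewest counts to -0.117 in that with the most. With offsets for length and GC content in the fit, 51 ribosomal protein and 28 oxidative phosphorylation genes fell, with medians of -0.29 and -0.24. With total count scaling the medians were -0.22 and -0.18, so the direction held, with 30 and 16 genes that fell. When only the fasted libraries were fitted, 9 and 3 fell. Without HFD fast 4, 60 ribosomal protein genes and 18 oxidative phosphorylation genes fell; without HFD fast 3, 18 of the latter did, and without CD fast 1 or without CD fast 2, 29. The part of length and abundance in the fall was not tested.

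**Figure D4:**
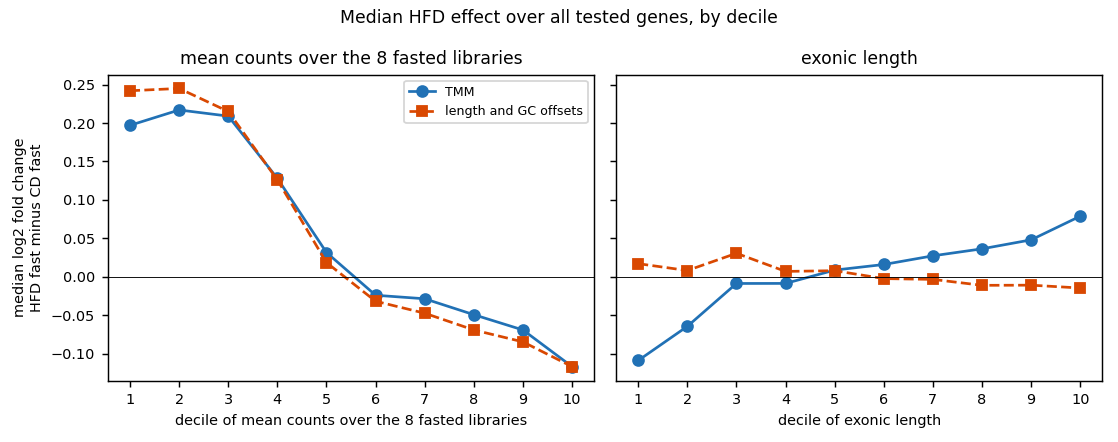
Median log2 fold change (HFD fast minus CD fast) of all tested genes in 10 bins of equal size, ordered by mean counts over the 8 fasted libraries (left) and by exonic length (right), with TMM scaling (circles) and with length and GC offsets (squares). The offsets were built to remove a trend with transcript length, so the trend with length, from -0.109 to 0.0788, had to flatten. They hold no term for counts, and the trend with counts, from 0.197 to -0.117, remains.

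The macrophage, interferon, matrix and endothelial genes that passed the test all rose, and many of them differed widely between HFD fast libraries. Mpeg1, a pore-forming protein of macrophages, was at 33.2, 42.5, 37.04 and 50.4 CPM in CD fast and 76.9, 74.7, 91.8 and 136 CPM in HFD fast, without overlap (1.22 ± 0.23, adjusted p = 0.00775). Ccr2, the chemokine receptor of recruited monocytes, rose from 0.5896, 0.588, 0.551 and 0.675 to 0.738, 2.86, 2.35 and 5.53 CPM (adjusted p = 0.0204, and 0.0715 without HFD fast 4). These were the only 2 of 28 macrophage genes to pass (7.14%, against 3.05% of all genes tested), while 23 of 28 were above 0 and the median was 0.60. Leaving out 1 library gave from 1 call (without HFD fast 4 or without CD fast 1) to 11 calls. DESeq2 and total count scaling called 10 each, and the length and GC offsets called 5. HFD fast 4 stood far above the rest of its group at 3 genes of lipid-associated macrophages, which were chosen after their values were seen. Gpnmb, a transmembrane glycoprotein of such cells, was at 0.236, 0.384, 0.0788 and 0.348 CPM in CD fast and 0.673, 2.15, 2.49 and 39.7 CPM in HFD fast. Mmp12, macrophage elastase, was at 0.377, 0.333, 0.295 and 0.283 CPM in CD fast and 0.304, 2.24, 2.56 and 19.2 CPM in HFD fast. Trem2, a lipid-sensing receptor, was at 0.6603, 1.02, 0.374 and 0.871 CPM in CD fast and 1.11, 1.97, 1.91 and 6.75 CPM in HFD fast. None of these 3 passed (adjusted p = 0.058, 0.0826 and 0.128). Cd9 and Spp1, which such cells express as well, did not pass either and had log2 fold changes of -0.43 and -0.25. The summed macrophage level was 400.4 to 595.7 CPM in CD fast and 540.8 to 847.2 CPM in HFD fast.

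HFD fast 4 also had the highest values of genes of cell division and matrix. The summed cell cycle and matrix levels were 435.5 and 847.1 CPM in HFD fast 4. In HFD fed 4, the highest HFD fed library in both lists, they were 382.1 and 856.8 CPM. Ccnd1, cyclin D1, was at 29.9, 14.4, 24.02 and 19.4 CPM in CD fast and 58.7, 31.8, 45.3 and 207 CPM in HFD fast (adjusted p = 0.0814). Col1a1, a chain of type I collagen, was at 1.56, 2.92, 1.32 and 5.31 CPM in CD fast and 1.63, 8.43, 6.46 and 24.4 CPM in HFD fast (adjusted p = 0.157). Top2a, the topoisomerase of dividing cells, was at 0.401, 0.691, 0.453 and 0.7399 CPM in CD fast and 0.998, 1.09, 1.38 and 4.38 CPM in HFD fast (adjusted p = 0.0404, and 0.162 without HFD fast 4, where the log2 fold change went from 1.79 to 1.02). All 25 stellate cell and matrix genes were above 0, with a median of 0.73, and 2 of them rose (8%, against 3.05% of all genes tested; 5 with DESeq2 or the replicate block and 7 with total count scaling). Reln, a glycoprotein made by stellate cells, rose by 0.75 ± 0.18 (adjusted p = 0.0203, and 0.06 without HFD fast 3). Timp1, an inhibitor of matrix proteases, had 1, 2, 1 and 4 counts in CD fast and 4, 24, 13 and 67 counts in HFD fast (adjusted p = 0.0482, and 0.168 without HFD fast 4). Its CD fast counts were near the floor of 3 counts per library, so it passed the filter on counts through other libraries. The call of Timp1 is therefore not read as a result, and nothing is read from the share of matrix genes that rose. Without HFD fast 4, and likewise without HFD fast 3, no matrix gene was called.

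Interferon-stimulated and antigen presentation genes gave 8 rises and no fall among 28 tested (28.6%, against 3.05% of all genes tested), with 26 above 0 and a median of 0.54. Gbp2, an interferon-induced guanylate-binding protein, was at 3.63, 2.58, 4.25 and 4.16 CPM in CD fast and 6.23, 8.32, 7.74 and 12.5 CPM in HFD fast (1.25 ± 0.26, adjusted p = 0.0109). Oasl2, of the oligoadenylate synthetase family, rose by 1.09 ± 0.28 (adjusted p = 0.0273). Without HFD fast 4, and likewise without CD fast 2, 1 of the 28 rose, and 2 rose without HFD fast 3, 3 without CD fast 1 and 5 without HFD fast 2. When only the fasted libraries were fitted, none did. The summed level of the list was 3392 to 3620 CPM in CD fast and 3323 to 3619 CPM in HFD fast.

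All 10 endothelial markers were above 0 (median 0.38) and 4 rose (40%, against 3.05% of all genes tested; 7 with total count scaling). Fcgr2b, the Fc receptor of liver sinusoids, was at 47.2, 42.2, 46.98 and 44.5 CPM in CD fast and 68.9, 53.7, 63.3 and 61.6 CPM in HFD fast (0.45 ± 0.08, adjusted p = 0.0055). Cdh5, VE-cadherin, rose by 0.49 ± 0.10, Stab2 by 0.43 ± 0.11 and Pecam1 by 0.44 ± 0.12 (adjusted p = 0.0106, 0.0283 and 0.0411). Stab2 and Pecam1 did not hold without CD fast 1 (0.0787) and without HFD fast 4 (0.123). The summed level was 293.9 to 365.4 CPM in CD fast and 353.8 to 459.9 CPM in HFD fast, where 3 of 4 libraries lay above all CD fast libraries. Of the 10, 2 rose without CD fast 1 or 4, or without HFD fast 3 or 4, and none when only the fasted libraries were fitted. The 15 lymphocyte markers summed to 7.01 to 14.6 CPM in CD fast and 13.2 to 21.5 CPM in HFD fast. Of 13 tested 1 rose (7.69%, against 3.05% of all genes tested), a call lost without any 1 of CD fast 2, 3 and 4 and HFD fast 2, 3 and 4, and of cholangiocyte markers none of 5 passed, nor did any have an unadjusted p under 0.05. The part of a shift in cell types in these values was not tested.

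Acute phase proteins, which hepatocytes secrete in inflammation, gave calls in both directions: 4 of 25 rose and 2 fell (16% and 8%, against 3.05% and 4.65% of all genes tested). Of the 25, 21 were above 0 and 4 below, and the median was 0.28. Saa4, a constitutive serum amyloid A, was at 173, 87.2, 208 and 179 CPM in CD fast and 355, 751, 369 and 319 CPM in HFD fast (1.47 ± 0.32, adjusted p = 0.0135). Saa3, the form made in macrophages and adipose tissue, rose by 1.75 ± 0.40 (adjusted p = 0.0176, and 0.0526 without HFD fast 4). Orm2, an orosomucoid, and Itih4, an inter-α-trypsin inhibitor chain, rose by 2.59 ± 0.63 and 0.77 ± 0.18 (adjusted p = 0.0224 and 0.0207, and 0.0813 and 0.0648 without HFD fast 3, where the log2 fold change of Orm2 was 1.83). The inducible Saa1 was at 576, 141, 19.2 and 25.9 CPM in CD fast and 633, 129, 938 and 156 CPM in HFD fast, with overlapping groups (adjusted p = 0.387). Hamp, which encodes hepcidin, the hormone that limits iron release, fell from 748, 1076, 940.3 and 773 to 390.5, 202, 265 and 434 CPM (-1.45 ± 0.29, adjusted p = 0.00976). Serpina3k, an abundant plasma serpin, was at 11894, 10497, 9896 and 9005 CPM in CD fast and 5322, 6211, 6902 and 4239 CPM in HFD fast (-0.86 ± 0.16, adjusted p = 0.00788). The complement genes C4a and C4b, near-identical paralogs whose reads may be confused, both rose. C4a was at 19.6, 16.3, 13.1 and 26.3 CPM in CD fast and 66.9, 94.03, 74.5 and 91.05 CPM in HFD fast. C4b was at 1229, 1381, 1069.8 and 1407 CPM in CD fast and 1888, 1758, 1915 and 1602 CPM in HFD fast. Their log2 fold changes were 2.12 ± 0.34 and 0.49 ± 0.11 (adjusted p = 0.00438 and 0.0193, the second 0.0581 without HFD fast 3).

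The rule for the largest changes (called in every fit without 1 fasted library, at least 100 counts on average, no overlap) also named genes outside the lists. Atoh8, a transcription factor that acts upstream of hepcidin, fell from 31.3, 33.4, 39.8 and 28.9 to 12.9, 9.84, 11.7 and 12.5 CPM (-1.51 ± 0.17, adjusted p = 0.000895), and its call also held when only the fasted libraries were fitted (adjusted p = 0.00537). Srgap3, a GTPase-activating protein, fell from 10.8, 6.29, 3.505 and 6.35 to 0.846, 0.635, 1.01 and 0.586 CPM (-3.13 ± 0.35, adjusted p = 0.000881). Fam222a fell by 3.32 ± 0.60 (adjusted p = 0.00683). Among the rises, Scara5, a ferritin receptor, went from 1.16, 7.19, 2.21 and 2.72 to 11.5, 19.1, 14.6 and 16.3 CPM (2.23 ± 0.47, adjusted p = 0.0127). Kbtbd11, Osbpl5 and Slfn9 rose by 2.10 ± 0.31, 1.79 ± 0.37 and 1.65 ± 0.37 (adjusted p = 0.00342, 0.0105 and 0.015). Without HFD fast 4 the value of Slfn9 was 1.02, and without CD fast 2 that of Scara5 was 2.91.

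Of the 24 genes named by this rule, 8 were not annotated as protein coding in GENCODE for GRCm38, C4a among them. Gm43305 (chr14:54292443-54297456, minus strand, a processed transcript) was at 264, 665, 348 and 415 CPM in CD fast and 802, 2399, 1223 and 1442 CPM in HFD fast (1.79 ± 0.34, adjusted p = 0.00814). Gm43549 and Gm42428, both annotated as lincRNA, rose by 2.27 ± 0.42 and 1.64 ± 0.29 (adjusted p = 0.00739 and 0.00651), and the lincRNA Gm26809 fell by 1.74 ± 0.31 (adjusted p = 0.00673). Of the largest falls, 3 lie antisense to abundant liver genes. Gm15622 (opposite Bhmt) was at 10.3, 4.84, 2.28 and 3.26 CPM in CD fast and 0.108, 0.113, 0.839 and 0.101 CPM in HFD fast (adjusted p = 0.00551). Gm10680 (opposite Apoa4) was at 34.8, 22.1, 2.82 and 17.9 CPM in CD fast and 0.499, 0.249, 2.58 and 1.49 CPM in HFD fast (adjusted p = 0.00816). B430119L08Rik (opposite Serpina1c) was at 10.8, 4.86, 4.57 and 5.11 CPM in CD fast and 0.282, 0.204, 1.87 and 0.182 CPM in HFD fast (adjusted p = 0.0126). HFD fast 3 was the highest HFD fast library for these 3 genes, and without it their log2 fold changes were -5.555, -4.67 and -4.82, against -4.13, -3.99 and -3.31 with it. Apoa4 itself was at 8093, 10954, 1937 and 7297 CPM in CD fast and 3049, 1253, 2055 and 4234 CPM in HFD fast (adjusted p = 0.196). The strand setting of the counting step is not given in the sources used here, so reads of these genes and of their partners cannot be told apart with certainty.

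Several other lists gave 0 to 3 calls in fasted livers, to be read against 3.05% higher and 4.65% lower of all genes tested. Of 15 targets of glucocorticoids, which rise in a fast, none was called by edgeR or limma-voom and 2 fell by DESeq2. In edgeR 6 of them had an unadjusted p under 0.05, against 25.9% of all genes tested, and the median was -0.57. Of 23 chaperones and other genes of the unfolded protein response none was called by edgeR, limma-voom or DESeq2. In edgeR 3 of the 23 had an unadjusted p under 0.05, and the median was -0.047. In fed livers 13 of the 23 fell, against 4.22% of all genes tested. The interaction was called for 1 of the 23, against 2.59% of all genes tested. Of 13 cytosolic heat shock proteins 2 fell (15.4%) and none rose (median -0.39), and 1 fell without CD fast 2, without HFD fast 3 or without HFD fast 4. Of 30 genes of cell cycle and mitosis 2 rose (6.67%) and 1 fell (3.33%), with 27 above 0 and a median of 0.61. None of these 30 was called without CD fast 1, 1 was called without CD fast 2, and without HFD fast 4 none rose and 1 fell. Of 30 genes of drug metabolism 1 rose (3.33%, median 0.19), a call lost without CD fast 1, HFD fast 3 or HFD fast 4. In this list 4 rose with total count scaling, and DESeq2 called 1 higher and 2 lower. Of 21 clock genes 1 fell (4.76%, median 0.32), a call lost without CD fast 2, HFD fast 3 or HFD fast 4. Of 22 NRF2 and antioxidant genes 1 fell (4.54%, median -0.037), a call lost without HFD fast 4. Leaving out 1 library gave at most 2 calls among glucocorticoid targets, unfolded protein response genes and NRF2 genes. It gave at most 3 in the drug metabolism and clock lists, 4 among heat shock proteins and 5 among cell cycle genes. When only the 8 fasted libraries were fitted, none of these 7 lists had a call.

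The study centres on splicing regulators, and of the 8 tested here 1 passed (12.5%, against 3.05% higher of all genes tested): Tia1, an RNA-binding protein that promotes recognition of weak splice sites, rose from 8.11, 6.93, 7.62 and 8.66 to 9.42, 10.7, 10.1 and 10.9 CPM (0.39 ± 0.09, adjusted p = 0.0174, and 0.0542 without HFD fast 4). Rbfox2 was at 40.9, 40.3, 36.6 and 43.003 CPM in CD fast and 39.3, 36.2, 42.1 and 37.2 CPM in HFD fast, and its log2 fold change was -0.06 ± 0.07 (adjusted p = 0.657).

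The HFD effect was then set beside that in fed livers (HFD fed minus CD fed), which rests on other libraries. In fed livers 1131 genes (7.50%) were called, 495 (3.28%) higher and 636 (4.22%) lower. In all, 169 genes were called in both states, which is 14.6% of the fasted and 14.9% of the fed calls, and 159 of them had the same sign. Of the 1161 genes called in fasted livers, 799 (68.8%) had the same sign in fed livers. The difference between both effects was tested as the diet by feeding state interaction, fasted minus fed, which called 390 genes (2.59%; 185, or 1.23%, above 0 and 205, or 1.36%, below 0). Among genes called in fasted livers, 155 also had a called interaction, 69 of those higher and 86 of those lower in HFD fast.

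Lipid synthesis genes differed between the states. In fed livers 14 of 25 lipogenic genes fell and none rose (median -0.82; 4.22% of all genes fell in fed livers), against 3 rises and 1 fall in fasted livers (median -0.00229). The interaction was called for 10 of 25, against 2.59% of all genes tested. Fasn had a log2 fold change of -1.54 ± 0.19 in fed and 0.42 ± 0.18 in fasted livers (interaction adjusted p = 0.00287). The level in CD fed livers was 1129.6 ± 317 CPM and in CD fast livers 104 ± 14.7 CPM (SD, n = 4 each). Pnpla3, an SREBP1c-dependent lipase of droplets, was at 12.1 ± 3.66 CPM in CD fed and 0.919 ± 0.285 CPM in HFD fed, and at 0.386 and 0.415 CPM on average in the fasted groups (interaction 3.80 ± 0.42, adjusted p = 0.00116). Thrsp had log2 fold changes of opposite sign, at -1.52 ± 0.56 in fed and 3.07 ± 0.60 in fasted livers (interaction adjusted p = 0.0132). In the cholesterol list 10 of 25 genes fell in fed livers (median -1.08), against the same 4.22%, none was called in fasted livers, and 9 had a called interaction, against 2.59% of all genes.

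Fatty acid oxidation genes differed in the opposite direction. In the mitochondrial list 8 of 19 rose in fed livers (median 0.37; 3.28% of all genes rose), 1 fell in fasted livers (median -0.22), and 7 had a called interaction, against 2.59% of all genes. The level of Cyp4a14 averaged 394 ± 156 CPM in CD fed and 3144 ± 1466 CPM in HFD fed (SD, n = 4 each), a rise of 2.996 ± 0.38, while in fasted livers the log2 fold change was -1.07 ± 0.35 (interaction -4.06 ± 0.51, adjusted p = 0.00287). The interaction was also called for Cyp4a10 (interaction -2.61 ± 0.42, adjusted p = 0.00838), Ehhadh (-2.24 ± 0.43, 0.0165) and the acyl-CoA thioesterase Acot1 (-2.58 ± 0.47, 0.0142). Cyp4a14 averaged 4969.9 CPM in HFD fast.

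**Figure D5:**
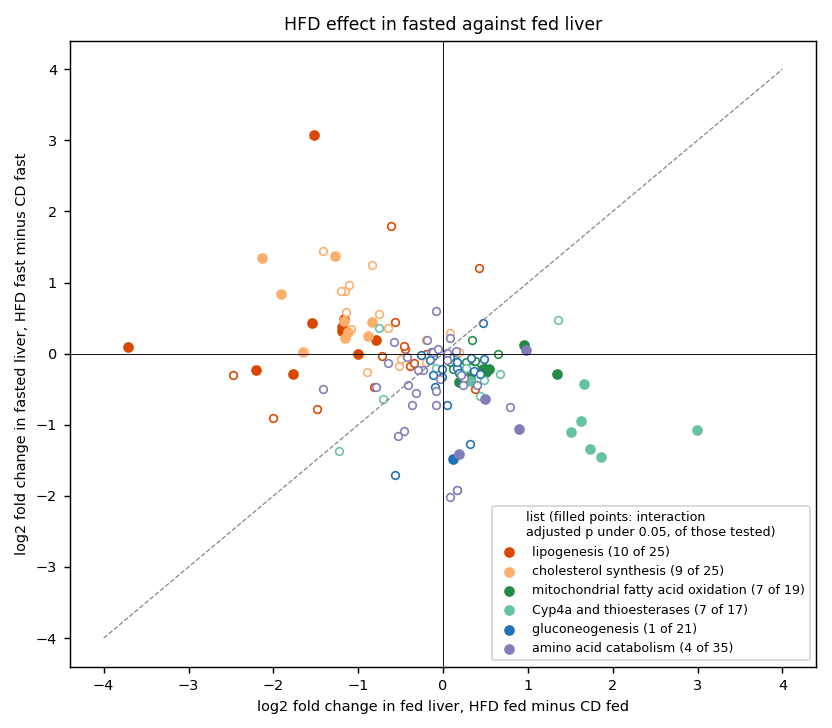
Log2 fold change with HFD in fasted livers (vertical) against that in fed livers (horizontal) for the tested genes of 6 lists, with 1 point per gene; filled points had an interaction adjusted p under 0.05, the key gives their number of those tested, and the dashed line marks equal effects. Filled lipogenesis points (10 of 25) lie left of the vertical line, and filled Cyp4a and thioesterase points (7 of 17) lie to the right and below the horizontal line.

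Several genes that fell in fasted livers did not pass the test in fed livers and had a called interaction. Pck1 had 0.12 ± 0.25 in fed livers (interaction -1.60 ± 0.36, adjusted p = 0.0296), Asl 0.32 ± 0.26 (-1.59 ± 0.37, 0.0369), Sdsl 0.19 ± 0.21 (-1.60 ± 0.30, 0.0164), Lepr 0.48 ± 0.53 (-3.05 ± 0.75, 0.0434) and Klb -0.02 ± 0.09 (-0.81 ± 0.13, 0.00838). For Tat and G6pc the interaction did not pass (adjusted p = 0.0566 and 0.238). Ribosomal protein genes fell in both states, 71 in fasted and 38 in fed livers of 78 (4.65% and 4.22% of all genes fell), and none had a called interaction. Cyp2b9 also rose in fed livers (6.79 ± 1.08; interaction adjusted p = 0.971).

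By the smallest interaction p among genes called in fasted livers, the genes with a more positive effect in fasted livers were Gm42863 (interaction 1.44 ± 0.23, adjusted p = 0.00838), the carboxylesterase Ces2g (1.04 ± 0.17, 0.00932), Prtn3, Tmem106a (0.67 ± 0.12, 0.0129) and Thrsp. Prtn3, neutrophil proteinase 3, rested on 1, 3, 1 and 9 counts in CD fast and 22, 16, 61 and 27 counts in HFD fast. It could enter the test through the HFD fast libraries alone, so its calls and its rank are not read as a result. Those with a more negative effect were E030018B13Rik (-5.54 ± 0.61, 0.00116), Tmtc2 (-1.73 ± 0.23, 0.00287), Dcaf6 (-0.78 ± 0.11, 0.00329), the DNA repair dioxygenase Alkbh2 (-1.30 ± 0.19, 0.00379) and Tmem243 (-0.89 ± 0.13, 0.00379). E030018B13Rik fell from 5.52, 5.71, 1.99 and 4.004 to 1.15, 0.635, 0.503 and 0.545 CPM in fasted livers, and in fed livers it was at 0.2002 ± 0.0716 CPM with CD and 1.56 ± 0.819 CPM with HFD (SD, n = 4 each).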

How the data were processed

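Livers were flash frozen, and polyadenylated RNA was sequenced with 100 base paired-end reads. Per the labels and the study's methods, the authors aligned reads with TopHat2 (2.0.11, first-strand library type) to the Ensembl GRCm38 mouse genome and counted them per gene with featureCounts; the strand setting of the counting is not given in the sources used here. The deposited values are whole-number counts for 46078 Ensembl genes in 16 libraries, without normalization and without pooling of replicates. Gene symbols, positions and exonic lengths came from GENCODE M21 (GRCm38), and promoter sequences from RefSeq (GRCm38.p6).

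Counts were analysed with edgeR (4.0.16) in R (4.3.3). Genes were kept by filterByExpr (15075), scaled by TMM and fitted by the quasi-likelihood model with 1 coefficient for each of the 4 groups. Contrasts were HFD fast minus CD fast, HFD fed minus CD fed, and their difference. P-values were adjusted by the Benjamini-Hochberg method over all genes tested, with a threshold of 0.05. Alternatives used other scalings and filters, DESeq2 (1.42.0), limma-voom (3.58.1), only the compared groups, the replicate number as a block, each library left out in turn, stricter thresholds and, added after the data were seen, offsets for exonic length and GC content. The calculations were tested on simulated data.

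Named genes were members of the 51 gene lists, taken in order of p; by size of change, the top 12 higher and top 12 lower genes that stayed called when any fasted library was left out, had a mean of at least 100 counts and did not overlap between groups; among called genes, for each direction of the interaction, the 5 with the lowest p; and the most abundant genes. Sqle, Hmgcs1 and other members that did not pass were chosen for their known roles. Some genes that the rule names are not reported here. The members and lists were chosen with earlier results of these data known. No libraries of a group agreed within sampling noise (lowest chi-square per gene in fasted groups, 57.3). Total counts were 41364448 to 53982285 in the fasted libraries.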

Additional observations from a re-analysis of the deposited data

Results flagged for a closer look

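A library was marked where its gap to the nearest of the other 3 libraries of its group, divided by the range of the group, passed Dixon's critical value for 4 libraries. Every library marked here was the highest of its group for that gene. Chance marks about 1 in 20 groups. The marks are given as values, and their cause was not tested.

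Library CD fast 2 was high for Igfbp1 (615.8 CPM), Lepr (99.83 CPM), Cyp4a10 (6835 CPM), Cyp4a14 (12183 CPM) and Tmtc2 (29.22 CPM). It was also the highest for Elovl6 (73.04 CPM) and Apoc3 (1552 CPM). Library HFD fast 4 was high for genes of lipid-associated macrophages and of dividing cells, with Gpnmb at 39.75 CPM, Mmp12 at 19.23 CPM, Trem2 at 6.746 CPM, Ccnd1 at 206.6 CPM and Top2a at 4.383 CPM. It was also high for Cyp2a4 (64.77 CPM) and was marked for Irs2 (19.17 CPM).

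Library HFD fast 2 was high for the female-biased genes Cyp2b9 (450.2 CPM), Cyp2b13 (9.836 CPM) and Hao2 (2.856 CPM). It was marked as well for Hsd3b2 (86.93 CPM), Thrsp (200.6 CPM), Saa4 (751.5 CPM), Klb (30.8 CPM) and Osbpl5 (21.48 CPM). Library HFD fast 3 was marked for the antisense genes Gm15622 (0.8386 CPM) and B430119L08Rik (1.866 CPM). The remaining marks were Cyp2b9 at 3.879 CPM and Slc22a26 at 1.24 CPM in CD fast 3, B430119L08Rik at 10.82 CPM in CD fast 1 and Tmem243 at 49.57 CPM in HFD fast 1.

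The HFD effect also differed between fasted and fed livers by the interaction test (edgeR, adjusted p under 0.05) in the following named genes, given as the log2 difference, fasted minus fed. Below 0 were Pck1 (-1.60), Lepr (-3.045), Klb (-0.81), Asl (-1.59) and Sdsl (-1.60). So were the fatty acid oxidation and thioesterase genes Cyp4a10 (-2.61), Cyp4a14 (-4.06), Ehhadh (-2.235), Etfb (-0.59) and Acot1 (-2.58), and the complex III subunit Uqcr10 (-0.44). E030018B13Rik (-5.54), Tmtc2 (-1.73), Dcaf6 (-0.78), Alkbh2 (-1.30) and Tmem243 (-0.89) were below 0 too.

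Above 0 were the lipogenic genes Thrsp (4.59), Fasn (1.97), Acaca (0.99), Acly (1.49) and Pnpla3 (3.80). Genes of immune and endothelial cells with a positive difference were Mpeg1 (1.40), Gbp2 (1.51), Fcgr2b (0.53) and Cdh5 (0.75). Prtn3 (4.87) was above 0 too, but it had few counts in CD fast and is not read as a result. The complement paralogs C4a (1.93) and C4b (0.83), and Gm42863 (1.44), Ces2g (1.04) and Tmem106a (0.67), were above 0 as well.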

How the results depend on the processing

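Of the 1161 genes called for HFD in fasted livers, 709 were also called with total count scaling, which gave 2101 calls, and 1154 with DESeq2, which gave 1905. A fit of only the 8 fasted libraries called 90, an adjusted p under 0.01 left 217, and an absolute log2 fold change over 1 left 245. The other scalings, the other count filters, limma-voom (1021), the length and GC offsets (1206, chosen after the data were seen; 922 shared) and the replicate block kept the count within 1.5 times. For the effect in fed livers (1131), DESeq2 gave 1716 calls, an adjusted p under 0.01 gave 338 and an absolute log2 fold change over 1 gave 321. For the interaction (390) these settings gave 1050, 31 and 166. Total count scaling moved the share of higher calls in fed livers from 43.8% to 68.8%, and that of positive interactions from 47.4% to 69.5%.

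Leaving out 1 library at a time gave 535 to 1354 calls in fasted livers, 514 to 1268 in fed livers and 147 to 461 interactions. The fasted count fell by more than 1.5 times without HFD fast 4 (535, of which 506 were among the 1161), HFD fast 3 (553), CD fast 2 (705) or CD fast 1 (721). The fed count did so without CD fed 2 (514), HFD fed 3 (567), HFD fed 1 (739) or CD fed 1 (741). The interaction count did so without CD fed 2 (147), HFD fast 3 (162), HFD fed 3 (168), CD fast 2 (233), HFD fast 4 (239), HFD fed 1 or HFD fed 2 (241 each) or CD fed 1 (246). No called gene named in the text reversed its direction under these settings. The cause of these differences was not tested.

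Libraries of different groups are linked in the labels only by a number. Deviations of the 24 same-numbered pairs correlated at -0.243 to 0.662, and at -0.243 to 0.111 between CD fast and HFD fast. The best correlate had the same number in 9 of 24 cases. The highest value, 0.662, was that of HFD fed 4 with HFD fast 4. Each CD fed library correlated best with the CD fast library of its number, though weakly (0.0523 to 0.112). What these libraries share was not tested. With the replicate number as a block there were 1290 calls in fasted livers, 1207 in fed livers and 359 interactions. At the lowest depth, 3 counts of a library corresponded to 0.0767 CPM, so differences below that level were not detectable.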
